A study of Mus musculus with 4 samples.

Results

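The spots described here carried the highest share of 6 transcripts used to mark ciliated airway cells, in Visium sections of mouse lung. The score of a spot was its summed UMIs (unique molecular identifiers, each a counted transcript) of Foxj1, Tppp3, Ccdc153, Dynlrb2, Tmem212 and Cfap126 over its total UMIs. Spots with at least 2000 UMIs were ranked by this score within each section and the highest 10% were selected, leaving out spots in the highest 5% of the section by the club cell transcripts Scgb1a1 and Scgb3a2. This gave 396 ciliated-score spots of 4632 spots ranked, which is 8.55%, with 70 spots in the NV male section, 39 spots in the NV female section, 142 in the section of the V male and 145 in that of the V female. Because these values chose the spots, the levels of the 8 genes below are a description with no test.

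The study exposed C57BL/6J mice of both sexes, 6 to 8 weeks old at the start, to Peach Ice flavoured vapour from JUUL pens in whole-body chambers for 4 hours a day, 5 days a week, over 9 weeks (vaped, V), and compared them with non-vaped mice (NV). A cryosection of the upper pulmonary branches was profiled from 1 male and 1 female per group, so that each group and sex is a single mouse. A Visium spot is a small area of tissue that can hold several cells of different types. Fewer cells of a type and less RNA per cell cannot be told apart in it, and p-values below measure only the spread between these 4 mice. Where 4 values follow each other without further labels, their order is NV male, NV female, V male, V female. Levels are given in CPM, the UMIs of a gene or gene list over all UMIs of the summed spots, times 1000000.

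The 4 sections held 473 to 2053 spots and 6957392 to 34308556 UMIs, and their libraries shared 277 to 1167 spot barcodes per pair, since the barcodes are printed on every capture area. The V male section stood apart. Foxj1, Ccdc153 and Tmem212 had 0 UMIs in its 1489 ranked spots, and its cardiac muscle genes reached 14.7 CPM in the spots outside the selection, against 7110 to 12878 in the other 3 sections. Ciliated-score spots and other spots had similar median depths in the NV male section, with 10268 and 10168 UMIs. Elsewhere they were shallower, with 9048 against 11321 in the NV female, 4936 against 6754 for the V male and 7490 against 12986 for the V female.

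Ciliated cells line the conducting airways beside club cells and move mucus with motile cilia. The core of a motile cilium is the axoneme, in which outer and inner dynein arms drive the sliding of microtubule doublets, radial spokes and the central apparatus regulate it, nexin links hold the doublets together, and inner proteins brace the tubules. Foxj1 is the transcription factor that switches on this programme, Tppp3 binds and bundles microtubules, Dynlrb2 is a dynein light chain, and Cfap126, Ccdc153 and Tmem212 are further genes marking ciliated cells. Scgb1a1 and Scgb3a2 encode secretory proteins of club cells.

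Tppp3 (chromosome 8, 105467493 to 105471526, minus strand, GRCm38) carried the score. Of 2625 score UMIs in the ciliated-score spots, 2394 (91.2%) were Tppp3. The share was 93.1% in the NV male section (500 of 537 UMIs, exact binomial 95% interval 90.6 to 95.1%) and 97.9% in the NV female section (329 of 336 UMIs, 95.8 to 99.2%). It was 95.2% in the V male section (501 of 526 UMIs, 93.1 to 96.9%) and 86.8% in the V female section (1064 of 1226 UMIs, 84.8 to 88.6%). Every selected spot held Tppp3, and 270 of 396 (68.2%) held no UMI of the other 5 genes.

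The remaining score genes were rare. Foxj1 (chromosome 11, 116330704 to 116335399, minus strand) had 2, 1, 0 and 24 UMIs in the ciliated-score spots, and was seen in 19 of 396 spots. Outside the V male section its level was 2.71, 2.25 and 17.0 CPM, against 5.36, 3.40 and 14.9 in the other spots. The other spots include the club-rich ones, and with these set aside their level was 1.86, 1.42 and 8.51, below the ciliated-score spots in all 3 sections. The 0 UMIs of the V male ciliated-score spots allow a level of up to 3.58 CPM, the worth of 3 UMIs there. Ccdc153 gave 3, 3, 0 and 44 UMIs, Tmem212 7, 0, 0 and 25, Cfap126 8, 0, 6 and 21, and Dynlrb2 17, 3, 19 and 48. Dynlrb2 gave 19 of the 25 UMIs other than Tppp3 in the V male section.

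**Figure D1:**
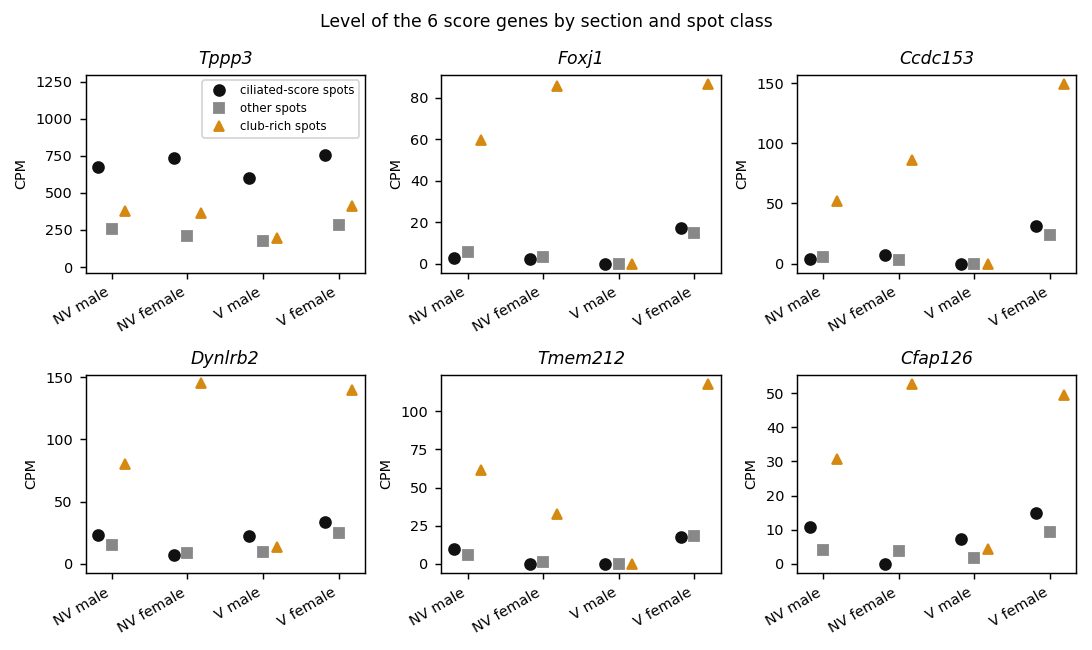
Level of each score gene (CPM, linear axis) in the ciliated-score spots (circles), the other spots of the same section (squares) and the club-rich spots (triangles), by section. Tppp3 was highest in the ciliated-score spots, between 598 and 754, whereas the other 5 genes were highest in the club-rich spots of the 3 sections other than the V male one.

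The selection rested on few molecules per spot. The median spot held 7 score UMIs in 3 sections and 3 in the V male section, and 61 of 396 spots held 1 or 2. The last spot inside and the first spot outside the threshold scored 612.3 and 612.2 CPM in the NV male, 575 and 556 in the NV female, 481.2 and 480.4 for the V male, and 733.9 and 733.2 for the V female. There was no gap in the score at the threshold. When Tppp3 was left out of the score, the selection became 61, 37, 141 and 127 spots, of which 16, 6, 23 and 28 were ciliated-score spots. Tppp3 was then at 318, 262, 215 and 341 CPM in them, against 291, 242, 206 and 301 in the spots outside. Left out in the same way, Foxj1 had 0, 1, 0 and 12 UMIs in the spots chosen by the other 5 genes, at 0, 2.25, 0 and 8.45 CPM. In the 3 sections that had any, these levels were below those in the spots outside (5.59, 3.40 and 15.3). The spots outside include the club-rich ones, which were left out of the chosen side alone. The NV levels rest on 1 UMI or fewer, too few to rank them.

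The label was checked against 86 axoneme genes in 7 groups that the rule did not use. Their summed level was 244, 229, 184 and 398 CPM in the ciliated-score spots, against 247, 199, 199.8 and 457 in the other spots. The ratio lay between 0.870 and 1.15, and the mean log2 ratio was -0.03 ± 0.18 (SD, n = 4 sections). It was above 1 in the NV female section alone. The other spots include the club-rich ones. With these set aside the comparison level was 220, 184, 198 and 326, and the ratio 1.11, 1.25, 0.928 and 1.22.

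Club-rich spots are the highest 5% of their section by club transcripts, at 107291, 56931, 1223 and 80935 CPM of Scgb1a1 and Scgb3a2 together. The V male class held less of these than the ciliated-score spots of the NV male and V female sections, at 7971 and 9028 CPM. Club-rich spots held more axoneme transcripts. Their level was 672, 824, 240 and 1931 CPM, 1.30 to 4.85 times the level in the ciliated-score spots. The 65 high-scoring spots that the rule removed as club-rich held 1199, 2694, 179 and 2319 CPM. Of these 65 spots 47 were in the V female section, where they were 24.5% of the highest 10%. Their Foxj1 level was 125, 376, 0 and 116 CPM, but Foxj1 is a score gene and was used to choose them. Outside the V male section the axoneme genes, which the rule did not use, stood higher in the removed than in the retained spots. With club-rich spots set aside, the axoneme level of the retained spots was at most 1.25 times that of the rest. The label of ciliated epithelium was therefore not borne out for the retained spots, which are called ciliated-score spots here, after the rule.

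The outer dynein arm genes, which include Dnah5 and Dnal1, were at 23.0, 42.7, 25.1 and 55.2 CPM in the ciliated-score spots and at 22.6, 18.7, 20.6 and 71.1 in the other spots. The V female spots were lower and the NV female spots were 2.28 times higher, with 19 UMIs in the latter. Inner dynein arm genes were at 12.2, 6.74, 5.97 and 33.3 against 12.7, 7.56, 2.84 and 54.2, where the V male value rests on 5 UMIs. Radial spoke genes were at 32.5, 24.7, 10.7 and 53.8 against 23.8, 21.1, 17.7 and 62.3. Central apparatus genes were lower in 4 of 4 sections, with ratios from 0.738 to 0.915, but with club-rich spots set aside the ratios were 1.08, 0.774, 0.834 and 1.22. The dynein arm assembly factors were higher in 4 of 4, with ratios from 1.02 to 1.09, and from 1.03 to 1.30 with club-rich spots set aside. The nexin link genes were within 0.816 to 1.04 and the microtubule inner proteins within 0.824 to 1.19. Against the same reduced set, the V female ratio was above 1 for each of the 7 structures.

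**Figure D2:**
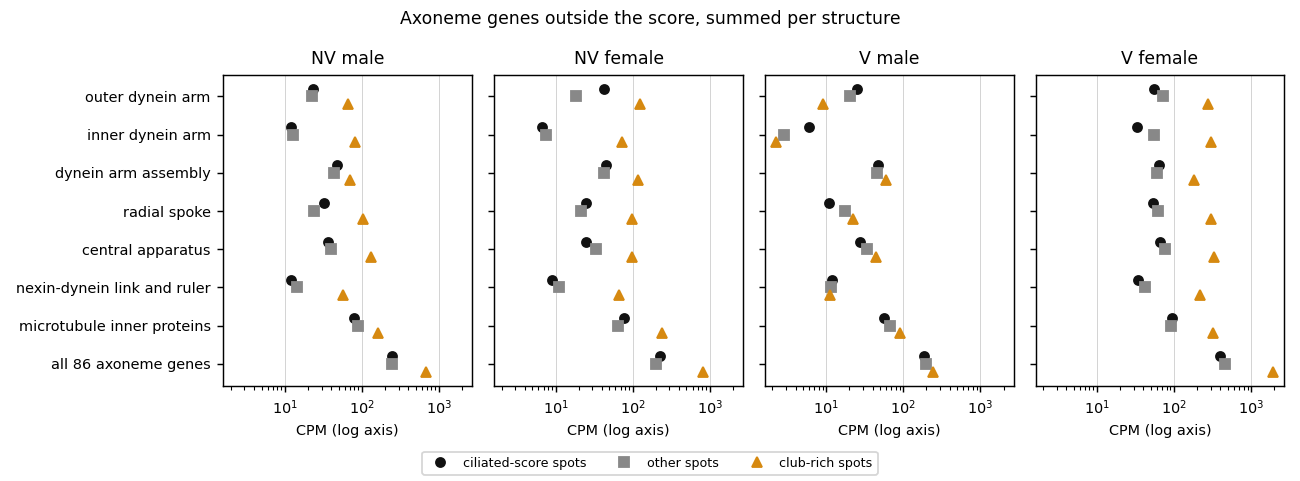
Summed level of the axoneme genes of each structure (CPM, log axis) in ciliated-score spots (circles), other spots (squares) and club-rich spots (triangles), one panel per section. The triangles lie to the right of both other symbols for every structure in the 3 sections other than the V male one, while circles lie on either side of squares.

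The share of spots with an axoneme transcript was compared at equal depth by thinning each spot to 2000 UMIs. In the NV male section, 23 of 70 ciliated-score spots (32.9%, exact binomial 95% interval 22.1 to 45.1%) had at least 1 axoneme UMI, against 36.8% (33.3 to 40.5%) of the other spots. For the NV female the shares were 41.0% (25.6 to 57.9%) and 31.5% (26.9 to 36.3%), and for the V male 30.3% (22.9 to 38.5%) and 33.4% (30.9 to 36.0%). In the V female section they were 48.28% (39.9 to 56.7%) and 48.29% (45.9 to 50.6%). The intervals overlapped in all 4 sections. They cover counting error over the spots of a section, which are not replicates, so a difference was not tested by them. Among club-rich spots the shares were 56.4, 61.9, 33.8 and 81.3%. Before thinning, 62.7 to 84.8% of ciliated-score spots and 71.2 to 91.2% of the other spots had an axoneme UMI.

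Selected spots that held a second score gene did not carry more axoneme transcripts in 3 of 4 sections. The 126 spots with a UMI of Foxj1, Ccdc153, Dynlrb2, Tmem212 or Cfap126 had an axoneme level of 222, 172, 152 and 429 CPM. They numbered 23, 6, 23 and 74, so that the NV female value rests on 6 spots. The 270 spots with Tppp3 alone, which numbered 47, 33, 119 and 71, had 255, 238, 191 and 327. The V female section was the exception and held 74 of the 126 spots. The split uses genes of the rule and was not tested.

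Next, all genes were compared between the ciliated-score spots and the other spots of the same section, as UMIs summed per section, with edgeR's quasi-likelihood test blocked by section. Calls needed a log2 fold change above 0.25 in size and p below 0.05 after Benjamini-Hochberg adjustment. Of 13723 genes tested, 204 (1.49%) were higher and 640 (4.66%) lower in the ciliated-score spots. With scaling by total UMIs alone 439 were higher and 425 lower, since that scaling moved the median log2 fold change of all genes from -0.02 to 0.10. The score divides by total UMIs, which hold every gene, so that at equal score UMIs a spot with more of any other transcript scores lower. With the score taken as summed UMIs, not divided by the total, 27 genes were higher and 2 lower. That setting selects other spots, and the part of the division in the calls was not tested.

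None of the axoneme genes passed the test. Of the 86 genes, 52 passed the filter on low counts, 0 were called by edgeR or by DESeq2, 1 had an unadjusted p under 0.05, and their median log2 fold change was -0.34 against -0.02 over all genes tested. The median turned to 0.15 against other spots without the club-rich ones and to 0.41 with Tppp3 left out of the score, with 0 genes called in both settings. Cfap20, a microtubule inner protein with the most axoneme UMIs in these spots, was at 69.0, 67.4, 48.9 and 52.4 CPM in the ciliated-score spots and at 71.0, 51.6, 59.3 and 44.7 in the other spots. Its log2 fold change was -0.06 ± 0.12 (SE; edgeR adjusted p = 0.908). Cfap298, Spef1 and Dnal1 had log2 fold changes of -0.12, -0.15 and 0.24. Among 33 other ciliated cell genes, 28 were tested, 1 was higher and 1 lower, with a median of -0.50, which turned to 0.24 and 0.29 in these settings.

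Sec14l3, the member that was higher, encodes a lipid-binding protein. It was at 158, 130, 223 and 209.6 CPM in the ciliated-score spots and at 102, 66.1, 166 and 139 in the other spots, with a log2 fold change of 0.50 ± 0.10 (SE; edgeR adjusted p = 0.000752). Mlf1 was the member that was lower, at 32.5, 44.9, 0 and 21.2 against 70.0, 50.5, 0.183 and 46.3, with a log2 fold change of -1.04 ± 0.18 (SE; edgeR adjusted p = 0.000194). Sec14l3 was higher in 4 of 4 sections. The 5 tested regulators of multiciliated cells, among them Rfx2, Rfx3 and Myb, gave no call in either direction. Nor did the 22 tested genes of the list for intraflagellar transport, which carries cargo along the cilium, with a median of 0.03. That list did not hold Ttc30a1, which was called lower and is named below.

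Genes of alveolar type 1 (AT1) cells, the flat cells through which gas exchange takes place, were higher in the ciliated-score spots when summed per section. The 8 AT1 genes summed to 5397, 5664, 7984 and 6240 CPM in the ciliated-score spots, against 3712, 2872, 7028 and 3687 in the other spots. The level was higher in 4 of 4 sections, with a mean log2 ratio of 0.62 ± 0.34 (SD, n = 4), and 7 of the 8 genes were called higher, where 1.49% of all genes were. Their median log2 fold change was 0.43 against -0.02 over all genes. The club-rich spots stood at 3669, 3851, 6694 and 2614. The V male ratio was the smallest, at 1.14, and the V male other spots exceeded the ciliated-score spots of every other section. Pan-epithelial, Schwann cell, red blood cell and immediate-early genes were also higher in 4 of 4 sections. So were the intraflagellar transport, Nrf2 target and dynein arm assembly lists. The mean log2 ratios of these lists ran from 0.08 to 0.44.

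Ager (chromosome 17, 34597862 to 34600936, plus strand), the receptor for advanced glycation end products and the standard AT1 marker, was at 2290, 2208, 3616 and 2748 CPM in the ciliated-score spots and at 1530, 1154, 3097 and 1659 in the other spots. Its log2 fold change was 0.50 ± 0.09 (SE; edgeR adjusted p = 0.000303). Hopx (chromosome 5, 77086988 to 77115121, minus strand), a homeodomain protein of AT1 cells, was at 1122, 1485, 1585 and 1277 against 758, 659, 1430 and 671, with a log2 fold change of 0.58 ± 0.10 (SE; edgeR adjusted p = 0.000282). The V male section had the smallest difference for both. The G protein-coupled receptor gene Gprc5a and the chloride channel gene Clic5 rose by 0.49 ± 0.10 and 0.43 ± 0.10 (log2, SE).

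Genes of alveolar type 2 cells, which make surfactant, did not pass the test, with 0 of 8 called and a median of 0.06. Sftpc, the most abundant of them, was at 30976, 19544, 33449 and 24453 CPM in the ciliated-score spots and at 26830, 17497, 36304 and 17603 in the other spots. Of the 10 pan-epithelial genes, 3 were called higher, where 1.49% of all genes were. The keratin gene Krt7 was at 504, 438, 701 and 467 against 346, 233, 587 and 302. Cyp2b10, a cytochrome P450 gene, was at 433, 420, 782 and 445.5 against 284, 202, 740 and 270 and rose by 0.48 ± 0.10 (log2, SE). Of 23 xenobiotic metabolism genes it alone was called higher, Cyp2a5 and Cyp2f2 were called lower, and the median was -0.11. Against other spots without the club-rich ones 0 were lower and the median was 0.04. None of the capillary endothelium genes was called, with a median of 0.16.

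The AT1 calls depended on how the score was built. With Tppp3 left out of the score, 0 of the 8 AT1 genes were called and their median log2 fold change was 0.07. With the score as summed UMIs, 0 were called and the median was 0.04. Without the V female section 2 of 8 were called.

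Heart muscle and fat genes were lower. All 8 cardiac muscle genes were called lower, where 4.66% of all genes were, with a median log2 fold change of -1.08. They summed to 5317, 8777, 8.35 and 3592 CPM in the ciliated-score spots against 12284, 12878, 14.7 and 7110 in the other spots. Myl7, the atrial myosin light chain, was at 1536, 2700, 1.19 and 960 against 3775, 3971, 2.01 and 1998, a log2 fold change of -1.12 ± 0.11 (SE; edgeR adjusted p = 3.64e-08). The alpha myosin heavy chain gene Myh6 fell by 1.08 ± 0.10 and the cardiac actin gene Actc1 by 0.99 ± 0.11 (log2, SE). The V male section held 7 cardiac UMIs in its ciliated-score spots, so these folds rest on the other 3 sections.

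All 6 adipocyte genes were also called lower, with a median of -1.31. Their sum was 774, 2630, 26.3 and 3337 CPM in the ciliated-score spots and 1207, 8036, 27.1 and 7978 in the other spots. Cfd (adipsin) was at 430, 1846, 3.58 and 2026 against 584, 5873, 3.39 and 4712, a log2 fold change of -1.27 ± 0.14 (SE; edgeR adjusted p = 2.33e-07). Adipoq, which encodes adiponectin, fell by 1.18 ± 0.15 and the lipid droplet gene Cidec by 1.10 ± 0.16 (log2, SE). With the score as summed UMIs, 0 cardiac and 0 adipocyte genes were called, and the cardiac median was 0.27. With Tppp3 left out of the score, 6 of 8 cardiac and 4 of 6 adipocyte genes were called lower, with medians of -0.48 and -0.55. The V male ciliated-score spots held 22 adipocyte UMIs, at 0.969 times the level of the other spots, so the adipocyte folds rest on the other sections.

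Of 8 B and plasma cell genes, 4 were called lower, where 4.66% of all genes were. Jchain, the joining chain of secreted IgA and IgM, was at 88.0, 29.2, 27.5 and 39.7 CPM in the ciliated-score spots and at 230, 160, 60.0 and 68.3 in the other spots, a log2 fold change of -1.44 ± 0.15 (SE; edgeR adjusted p = 8.48e-08). Igkc, the kappa light chain, fell by 0.63 ± 0.11. Of 8 fibroblast genes 5 were called lower, among them the proteoglycan gene Dcn, which fell by 0.82 ± 0.11 (log2, SE). With Tppp3 left out of the score, and with the score as summed UMIs, 0 genes of both lists were called, and the fibroblast median turned to 0.10 and 0.07. Of the 11 mucous and serous cell genes, 10 were tested and 3 were lower. Bpifa1, an airway secretory protein, was at 73.1, 24.7, 15.5 and 6512 against 165, 53.9, 14.8 and 7520, and Scgb3a1 fell by 0.78 ± 0.14 (log2, SE). Since the rule removed club-rich spots from the selected side, a lower level of airway secretory genes was built into it. Set against other spots without the club-rich ones, Bpifa1 had a log2 fold change of 0.03 and Scgb3a1 of 0.15.

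**Figure D3:**
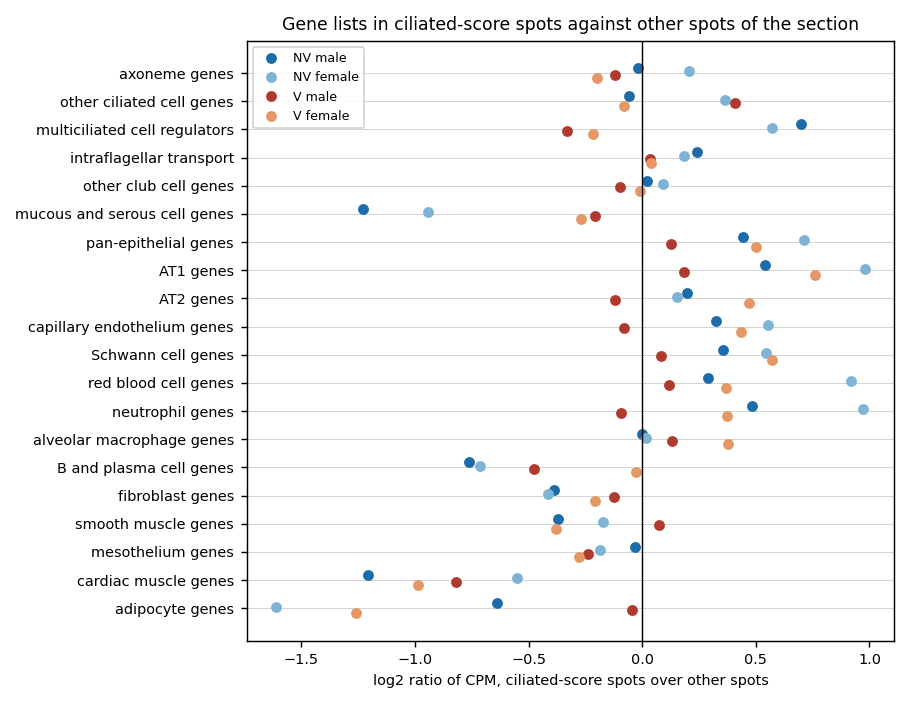
Log2 ratio of the summed CPM of each gene list in the ciliated-score spots over the other spots of the same section, with 1 point per section and 0 meaning no difference. AT1 genes lie right of 0 and cardiac muscle genes left of 0 in 4 of 4 sections, while axoneme genes lie on both sides.

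Across the whole range of the score the same lists were followed in 10 bins of spots ranked by the score, with club-rich spots left out. AT1 genes went from 5367 CPM in the highest bin to 2710 in the lowest in the NV male section and from 6145 to 2194 in the V female section. For the NV female they went from 5560 to 3692, with 1688 in bin 8 as the lowest, and for the V male from 7984 to 6814. The AT1 level thus was highest in the top bin of 4 of 4 sections. Axoneme genes ranged from 181 to 245 CPM for the NV male, 152 to 226 for the NV female, 181 to 219 for the V male and 266 to 413 for the V female. In the V female section the 4 highest bins lay between 365 and 413 and the 4 lowest between 266 and 310. Cardiac muscle genes went from 5314 in the top bin to 22788 in bin 8 of the NV male section. For the NV female they followed no order, with 8517 in the top bin, 19041 in bin 8 and 6719 in bin 9, and for the V male they stayed between 8.35 and 20.8. The bins were cut from the score without a test, and the top bin differs from the ciliated-score spots in 3 of 4 sections, with 75, 42, 142 and 183 spots.

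**Figure D4:**
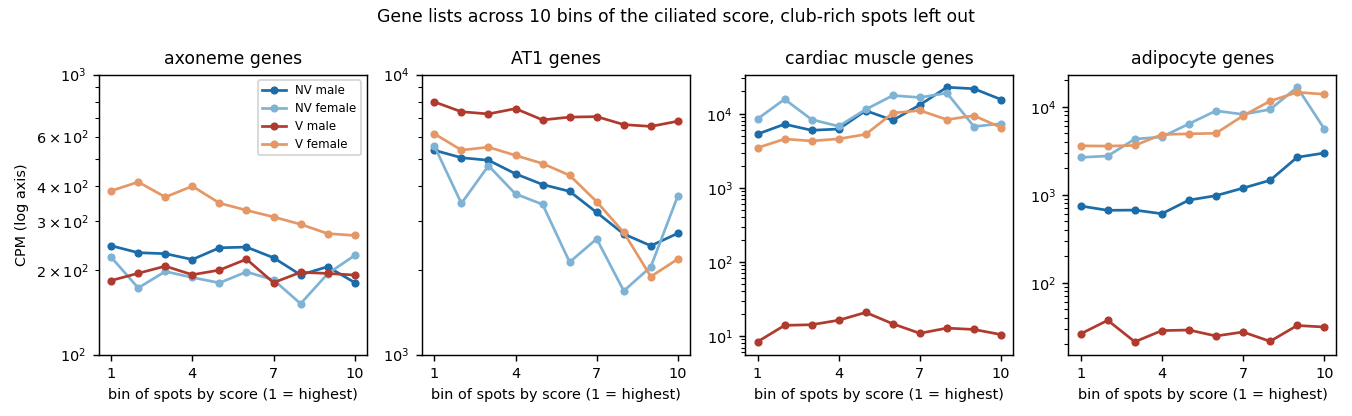
Summed CPM (log axis) of the axoneme, AT1, cardiac muscle and adipocyte genes in 10 bins of the spots ranked by the ciliated score, with 1 as the highest bin and 1 line per section. AT1 levels were lower in bins 7 to 10 than in bin 1 in 4 of 4 sections, and the axoneme lines of all but the V female section stayed between 152 and 245.

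Most of the genes with the largest positive fold changes are known from neurons. By the naming rule they were Cplx1, Slc7a14, Tubb3, Cgref1, Tagln3, Ddc, Tub, Pcp4, Rab3b, Sv2a, Syn1, Nap1l5, Scg3, Mtmr7 and Kif1a, with log2 fold changes from 1.61 to 3.41. Cplx1, Syn1 and Sv2a encode proteins of the synaptic vesicle cycle, Tubb3 a neuronal tubulin and Kif1a an axonal motor. Tubb3 was at 32.5, 108, 2.39 and 30.5 CPM in the ciliated-score spots and at 3.38, 13.3, 0.366 and 2.96 in the other spots, a log2 fold change of 3.04 ± 0.22 (SE; edgeR adjusted p = 1.35e-10). It was higher in 4 of 4 sections, but the V male value was 2 UMIs.

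These neuronal transcripts lay in 4 of the 396 spots. Snap25, Tubb3, Stmn3, Prph and Nefl, neuronal genes chosen after their values were seen, summed to 149, 177, 2 and 221 UMIs in the ciliated-score spots. A single spot of the NV male section held 137 of them, 1 spot of the NV female section 162, and 2 spots of the V female section 154 and 40. Among the 4236 other spots, 1 reached 20 UMIs, with 71 in the NV female section, and its Tppp3 level was 505 CPM. The 4 spots held 21, 59, 48 and 36 Tppp3 UMIs, or 794, 822, 1085 and 853 CPM. Of the Tubb3 UMIs in ciliated-score spots 90.6% were in these 4 spots, and of Cplx1 94.9%, whereas for Mtmr7 it was 27.3%.

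Snap25 (chromosome 2, 136713453 to 136782428, plus strand), which encodes a synaptic membrane fusion protein, was at 83.9, 89.8, 0 and 38.2 CPM in the ciliated-score spots against 5.12, 7.26, 0 and 2.96 in the other spots. Its log2 fold change of 3.63 ± 0.21 (SE; edgeR adjusted p = 3.43e-12) had the smallest adjusted p of the 13723 genes. The neuroendocrine genes Chga and Resp18 also passed the test, with log2 fold changes of 2.88 and 3.02. Without the 4 spots, 120 genes were higher and 642 lower, 84 of the 120 were among the 204, and 8 of 8 AT1 genes were called. The 10 genes named for the largest negative fold changes were Ttc30a1, Rbp7, Cldn22, Ccl2, Arxes1, Chst4, Apol6, Orm1, Nrap and Ces1f, from -3.38 to -1.76. Orm1, an acute phase protein, was at 0, 18.0, 0 and 14.9 CPM against 8.04, 36.9, 0.641 and 49.6, and Nrap, a muscle protein, at 4.06, 15.7, 0 and 5.67 against 27.5, 26.9, 0.549 and 17.3. Ttc30a1, Rbp7, Cldn22 and Ccl2, which gave the 4 largest of these changes, were at 3 UMIs or fewer in the selected spots of each section, and Chst4 at 4 or fewer, so their fold changes depend on the prior count of the fit.

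The club-rich spots, the class that the rule left out, were then compared with the ciliated-score spots. Club-rich spots were chosen by Scgb1a1 and Scgb3a2 of the same spots, and the rule kept those spots out of the ciliated-score ones. Genes of the same airway cells are therefore not independent of the choice. The ciliated-score spots still held Scgb1a1, at 7860, 1029, 218 and 8153 CPM, against 105319, 54168, 1174 and 72396 in the club-rich spots. Scgb3a2 was at 111, 27.0, 2.39 and 875 against 1972, 2763, 49.3 and 8540. The V male club-rich class was thus itself poor in club transcripts. Of 9629 genes tested by edgeR's quasi-likelihood test, 34 (0.353%) were higher and 142 (1.47%) lower in the ciliated-score spots. Without the V female section 6 were higher and 17 lower.

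Of 33 other ciliated cell genes 20 were tested and 18 were lower, with a median log2 fold change of -3.16 against 0.00 over all genes. Fam183b, a gene of ciliated cells, was at 1.35, 0, 0 and 9.21 CPM in the ciliated-score spots and at 38.4, 46.2, 0 and 112 in the club-rich spots, a log2 fold change of -4.03 ± 0.35 (SE; edgeR adjusted p = 5.01e-07). Of 12 axoneme genes that passed the filter, 7 were lower and 0 higher, with a median of -2.69. Without the V female section, 0 of 5 axoneme genes and 3 of 7 other ciliated cell genes tested were lower. Dnah5 (chromosome 15, 28203752 to 28472052, plus strand), the outer arm heavy chain mutated in primary ciliary dyskinesia, was at 1.35, 0, 0 and 14.2 against 5.76, 26.4, 0 and 126, a log2 fold change of -3.35 ± 0.35 (SE; edgeR adjusted p = 4.20e-06). The inner arm heavy chain Dnah6 and the central apparatus gene Spag6l had log2 fold changes of -2.95 and -3.79.

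The genes named on the lower side were Cyp2a5, Scgb3a1, Tctex1d4, Reg3g, Sult1d1, Bpifa1, Nme5, Cyp2f2 and Catip, with log2 fold changes from -4.12 to -3.44 and the same sign in 4 of 4 sections. Cyp2f2, the P450 of club cells, was at 145, 62.9, 26.3 and 816 CPM against 2254, 1345, 40.3 and 6231. Cyp2a5, another airway P450, was at 8.12, 4.49, 0 and 232 against 119, 310, 8.96 and 3013. All 9 tested mucous and serous cell genes were lower, with a median of -3.56, among them the gel-forming mucin Muc5b, which fell by 3.47 ± 0.31. Tctex1d4 (a dynein light chain), Nme5 (a radial spoke protein) and Catip (a ciliogenesis protein) had log2 fold changes of -3.80, -3.55 and -3.44.

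On the higher side the rule named Cplx1, Nsg2, Tubb3, Syn2, H2-M3, Ifit3b, Ahnak2, Edn1, Lama3, Col4a3, Pde3a, Ndnf, Hopx, Hs2st1 and Pxdc1, with log2 fold changes from 0.63 to 3.35. Of the 8 AT1 genes Ager, Hopx and Gprc5a were called higher, by 0.59, 0.65 and 0.57. Col4a3, a basement membrane collagen, was at 104, 171, 183 and 154 CPM against 82.6, 65.9, 146 and 51.3, and Lama3, a laminin chain of epithelial basement membranes, at 67.7, 108, 96.7 and 90.7 against 42.2, 52.8, 87.4 and 28.4. The red blood cell gene Hbb-bs rose by 0.56 ± 0.14 (log2, SE), and reads of the near-identical adult beta globin copies may be split in counting.

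V and NV were compared within the ciliated-score spots, with 2 mice per group. Of 9722 genes tested by edgeR's quasi-likelihood test, 0 (0%) were called, 272 had an unadjusted p under 0.05, and the smallest adjusted p was 0.999. DESeq2 called 0, with 67 at an unadjusted p under 0.05. Without the V male section 84 genes were called, and without the V female section 440, fits in which the remaining V section is assumed to vary like the NV ones.

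The 5 genes with the smallest unadjusted p on each side are given as values only, since they were picked by that p and none of them was called. Igha, the heavy chain of IgA, was at 59.6 and 31.4 CPM in the NV male and female spots and at 175 and 195 in the V male and female spots, a log2 fold change of 1.96 ± 0.32 (SE; edgeR adjusted p = 0.999). The eosinophil-associated ribonuclease gene Ear2 was at 33.8 and 38.2 in NV and at 71.6 and 89.2 in V, and the interferon-induced gene Ifit3b at 9.47 and 15.7 in NV and at 38.2 and 34.7 in V. Gadd45b, a stress-response gene, and Tram2 completed this side, with log2 fold changes of 1.10 and 1.63. On the other side were the immediate-early nuclear receptor Nr4a1, at 237 and 76.4 in NV and 33.4 and 26.2 in V, its relative Nr4a3, at 25.7 and 22.5 against 3.58 and 4.96, and the inducible chaperone Hspa1a, at 77.2 and 87.6 against 3.58 and 22.7. Got1, an aminotransferase, and Ighm, the IgM heavy chain, had log2 fold changes of -1.81 and -1.60.

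**Figure D5:**
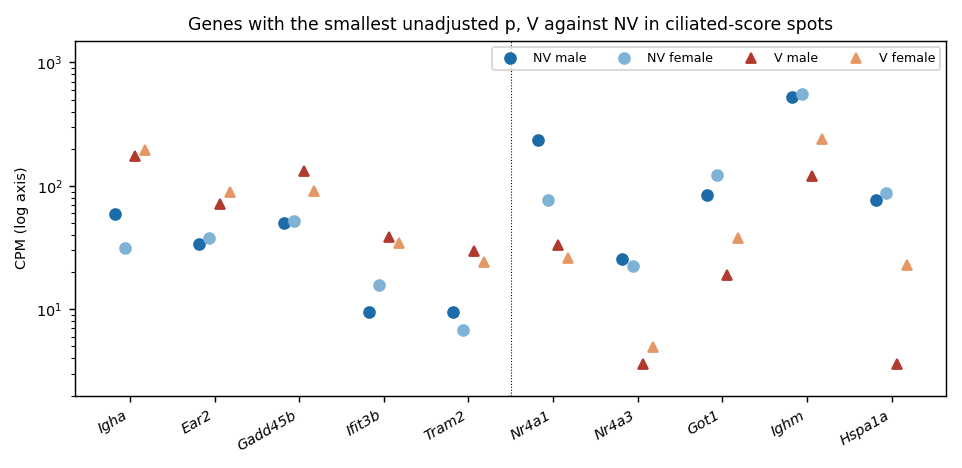
CPM (log axis) in the ciliated-score spots of each section for the 10 genes with the smallest unadjusted p between V (triangles) and NV (circles). The genes were picked by p, 5 with a higher level in V on the left and 5 with a lower one on the right. None of the 10 was called.

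Ciliary genes could hardly be compared between V and NV, since 5 of 86 axoneme genes passed the filter on low counts. Their log2 fold changes had a median of -0.26 and 0 were called. Dnal1, the outer arm light chain, was at 10.8 and 27.0 CPM in NV and at 21.5 and 9.92 in V. The V sections differed from each other more than from NV in axoneme level, with 184 in V male and 398 in V female spots against 244 and 229 in NV. Of the 8 AT1 genes, 0 were called, the median was 0.32, and Ager was at 2290 and 2208 in NV and at 3616 and 2748 in V. The 8 cardiac muscle genes moved with the section, at 5317 and 8777 in NV, 8.35 in V male and 3592 in V female spots, and their part in the V to NV differences was not tested.

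The ciliated-score contrast itself was compared between V and NV through an interaction term. Of 13723 genes tested by edgeR's quasi-likelihood test, 1 (0.00729%) was called and 445 had an unadjusted p under 0.05. The called gene was Iglc2 (chromosome 16, 19198396 to 19200351, minus strand), a constant region of the lambda light chain with near-identical copies that counting could split. It was at 66.3 and 184 CPM in the NV male and female ciliated-score spots against 86.3 and 728 in the other spots, and at 41.8 and 37.5 against 19.04 and 35.0 in the V male and female sections. The interaction was 1.87 ± 0.33 on the log2 scale (SE; edgeR adjusted p = 0.00688), and DESeq2 called 0 genes. The uncalled genes with the smallest p were Ighm, Tram2, Bpifa1 and St3gal4 on the higher side and S100a8, Ass1, Ccl21a, Tmem59l and Zfp1 on the lower side, with adjusted p from 0.0936 to 0.693. No axoneme gene was called among 52 tested, and the median interaction was -0.0017 (log2).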

How the data were processed

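Visium libraries from 4 lung sections (2 V, 2 NV) were analysed. The authors aligned reads to mm10 with Space Ranger and deposited raw UMI counts per gene and spot, and Seurat 4.0.3 is also named in the submitters' processing notes. No columns were left out. Sections gave 6957392 to 34308556 UMIs, and intervals and the floor of 3 UMIs cover counting error only. The members and gene lists were chosen with earlier results of these data known. UMIs were summed per section over ciliated-score, other and club-rich spots, and compared in R 4.3.3 by the quasi-likelihood test of edgeR 4.0.16, with section as block, TMM scaling and filterByExpr at its default minimum count of 10. The 8 genes of the rule stayed in the library sizes without a test. Levels are CPM of total UMIs. Sections are single mice and spots were not used as replicates. Each standard error is the fold change over the root of F. Named were the 15 higher and 10 lower called genes with the largest changes, of the same sign in 4 of 4 sections and with at least 50 UMIs, the 5 smallest p per side where fewer than 10 were called, and up to 4 genes per list with the most UMIs in ciliated-score spots, besides the neuronal genes, Cyp2b10, Jchain, Fam183b and Muc5b, chosen after their values were seen. Unannotated loci were not named, and 1 gene that the rule names is not reported here. Coordinates are from GENCODE for GRCm38. Tests were tried on simulated data. DESeq2 1.42.0, other spot choices, scalings, filters and left-out sections were the alternatives.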

Additional observations from a re-analysis of the deposited data

Results flagged for a closer look

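The contrast of ciliated-score spots with other spots differed between V and NV for Iglc2 in the interaction test, by 1.87 on the log2 scale (edgeR adjusted p = 0.00688), with the gene lower than in the other spots in both NV sections and higher in both V sections. This call was not made by DESeq2, without the 4 spots with neuronal transcripts, or against other spots without the club-rich ones.

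For 4 gene lists every NV section moved one way and every V section the other, and these differences were not tested. The mean log2 ratio of ciliated-score over other spots, V minus NV, was -0.80 for radial spoke genes, -0.91 for regulators of multiciliated cells, -0.47 for large vessel and lymphatic genes and -0.11 for the other club cell genes. With club-rich spots set aside, the V female ratio moved to the NV side for 3 of these lists, to 1.30 for radial spoke genes, 1.14 for the regulators and 1.26 for the other club cell genes, so that the split held for the large vessel and lymphatic genes alone. The radial spoke values rest on 9 to 76 UMIs per section and those of the regulators on 10 to 41.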

How the results depend on the processing

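The number of genes called between ciliated-score and other spots was 844 and moved to 123 with the score without Tppp3, 29 with the score as summed UMIs, 294 with DESeq2's Wald test, and 194 to 1196 when single sections were left out. V against NV in ciliated-score spots went from 0 to 110 called genes without a filter on low counts and to 0 to 440 with single sections left out. The labels give the V and NV mice the same replicate numbers, which are also the sexes. The mice differ, and the deviations of the NV male and V male sections from their group means correlated with r = 0.23 over 9722 genes. With the replicate block, V against NV gave 0 called genes, with 431 at an unadjusted p under 0.05 instead of 272, and the interaction gave 2. The interaction otherwise went from 1 called gene to 3 (highest 5%), 30 (score without Tppp3), 2 (no filter on low counts), and 0 with the highest 20%, at least 1000 UMIs, other spots without club-rich spots, DESeq2 size factors, DESeq2's Wald test or without the 4 spots with neuronal transcripts, and 0 to 35 with single sections left out. Against club-rich spots, 176 genes were called, and 326 with the highest 20%, 647 with summed UMIs, 71 with DESeq2, 554 without a filter, and 23 to 279 with single sections left out. Without thinning the shares of ciliated-score spots with an axoneme UMI were 78.6, 84.6, 62.7 and 84.8% (NV male, NV female, V male, V female), and at least 3 UMIs were found in 0, 2.56, 0 and 1.38%, while the V female share was 59.2% with summed UMIs. The mean Tppp3 level was 284 without Tppp3 in the score. The scaling by total UMIs alone and the removal of the 4 spots were chosen after seeing the data.

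Log2 fold changes of called genes changed sign as follows. With the score as summed UMIs they were 0.20 for Actc1, 0.27 for Arxes1, 0.32 for Ccl2, -0.055 for Clic5, 0.085 for Dcn, -0.20 for Hbb-bs, 0.27 for Mlf1, 0.32 for Myh6, 0.33 for Myl7, 0.20 for Nrap, 0.11 for Orm1, 0.59 for Rbp7, -0.057 for Sec14l3, and -0.31 for the interaction of Iglc2. With the score without Tppp3 they were 0.39 for Bpifa1, 0.84 for Ccl2, -1.05 for Nap1l5, -0.18 for Nefl, -0.10 for Rab3b, 0.10 for Scgb3a1, -0.022 for Syn1, -0.017 for Tub and -0.30 for Tubb3. Without the 4 spots with neuronal transcripts they were -0.72 for Cplx1, -0.12 for Kif1a, -0.50 for Nap1l5, -0.38 for Prph, -0.77 for Rab3b, -0.26 for Stmn3, -0.21 for Syn1 and -0.21 for Tubb3. Against other spots without club-rich ones they were 0.029 for Bpifa1 and 0.15 for Scgb3a1. The cause was not tested, beyond the change of spots that each setting makes. The median ciliated-score spot held 3 to 7 score UMIs, which limits how well the score can separate spots.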

Other observations

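Among the lists not described above, red blood cell genes were higher in ciliated-score spots in 4 of 4 sections, with a mean log2 ratio of 0.42 ± 0.35 (SD) and 2 of 5 genes called higher. Over all genes tested, 1.49% were called higher and 4.66% lower. With Tppp3 left out of the score 4 red blood cell genes were called higher. At the highest 5%, the highest 20% and with the score as summed UMIs 0 were called, and the last setting gave a median of -0.26. The Schwann cell list was higher in 4 of 4 sections as well, at 749, 734, 942 and 742 CPM against 584, 504, 888 and 499 in the other spots (NV male, NV female, V male, V female). Of its 5 genes, Pmp22 and Prx had the most UMIs in these spots, and 1, the membrane protein gene Pmp22, was called. The level was highest in the V male section, whose ciliated-score spots held 2 UMIs of Snap25, Tubb3, Stmn3, Prph and Nefl together. Whether the list reflects Schwann cells here was not tested. Of 11 Nrf2 target genes 10 were tested, 1 was higher (Prdx6) and 1 lower (Me1). None of the heat shock, immediate-early or interferon-stimulated genes was called in this contrast by edgeR's quasi-likelihood test. Cartilage genes had 147 UMIs in the V female ciliated-score spots, 1 in the NV male ones and 0 in the other 2 sections.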
